A study of Mus musculus with 24 samples.

Results

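*Neat1*, *Malat1*, *Meg3*, *Rian*, *Mirg*, *Miat*, *Snhg11* and *Gm3764* are long noncoding RNA genes of mouse, and these 8 members were taken by name from the 51826 genes of a hippocampal count table. *Neat1* and *Gm3764* were chosen for their lower counts after learning in wild-type mice of these same data. Their values in every comparison that uses those wild-type libraries are therefore given as a description, and no test of them is read there. Some counts of members called include them, which is stated. They are tested only between the mutant groups. CBP, a coactivator that acetylates histones, binds phosphorylated CREB through its KIX domain, and the study asked how mutation of that domain alters the hippocampal transcriptome after learning.

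Long noncoding RNAs of this kind are transcribed like messenger RNAs but are not translated, and several of them stay in the nucleus. *Neat1* is the scaffold of nuclear bodies called paraspeckles, and *Malat1*, its neighbour in the genome, gathers at nuclear speckles, where splicing factors are stored. *Meg3*, *Rian* and *Mirg* are expressed from the maternal copy of the imprinted *Dlk1*-*Dio3* domain and host small nucleolar RNAs and miRNAs, *Snhg11* is a small nucleolar RNA host gene of neurons, *Miat* is a nuclear RNA of neurons, and *Gm3764* spans the gene of the neural miRNA miR-9.

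All mice were of the C57BL/6j strain, aged 2 to 4 months, and are taken here as males. The study's methods report both sexes among its mice and do not give the sex of those sequenced. The mutants, labelled CBP KIX/KIX and called KIX here, carry germline point mutations in the KIX domain of both copies of CBP, so every cell type and every age was exposed to them, and their wild-type (WT) littermates carry none. Trained mice were taken 1 h after the Morris water maze (MWM) or contextual fear conditioning (CFC), and homecage mice were not trained. The dorsal hippocampus was sequenced in 24 libraries. RNA-Seq 1 held 9 libraries of ribosomal-depleted total RNA, 3 each of WT homecage, WT MWM and KIX MWM. RNA-Seq 2 held 15 polyA-selected libraries, 3 of WT homecage and 4 each of WT CFC, KIX CFC and KIX homecage. Task, RNA selection and sequencing change together between RNA-Seq 1 and RNA-Seq 2 and cannot be told apart. The labels do not state that the libraries come from separate animals, so p-values measure the spread between these libraries.

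Total counts were 38174044 to 65709282 in RNA-Seq 1 and 15385836 to 46056290 in RNA-Seq 2, where replicates 1 and 2 were deeper than replicates 3 and 4. Levels are CPM as edgeR computes them from library sizes scaled by the upper quartile. By total counts without that scaling, 3 counts corresponded to 0.0457 to 0.195 CPM. All 8 members lay far above that level in all 24 libraries, passed the filter on low counts in every comparison, and together took 0.371% to 0.644% of each library's counts.

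Markers of hippocampal tissue were present throughout. The 8 neuronal markers, led by *Camk2a*, summed to group means of 8802 to 9826 CPM, the 8 oligodendrocyte markers, led by *Mbp*, to 3887 to 5183 CPM, and the 8 astrocyte markers, led by *Slc1a2*, to 3251 to 4126 CPM. Oligodendrocyte precursor, microglial, ependymal, thalamic and striatal lists summed to 180.3 to 251.9, 269.9 to 377.4, 22.61 to 42.81, 240.4 to 436.6 and 25.66 to 39.09 CPM. Group means of the CA1 list, led by *Fibcd1*, were 744.0 to 953.8 CPM in RNA-Seq 1 against 273.1 to 353.1 CPM in the polyA libraries, and those of the CA3 list 289.5 to 310.9 against 191.7 to 232.6 CPM. Choroid plexus markers, a tissue outside the hippocampus, ranged from 26.87 to 4170 CPM between libraries, with *Ttr* the most abundant at 3.257 to 3841 CPM. In bulk tissue, fewer cells of a type and less RNA per cell cannot be told apart.

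Libraries that stood apart were WT homecage replicate 3 of RNA-Seq 1, WT CFC replicate 1 and KIX homecage replicates 3 and 4. In the first, *Malat1* reached 6032 CPM against 4483 and 4567 CPM in the other replicates, and the summed neuronal markers were 7881 CPM against 10640 and 10870 CPM. By the chi-square per gene between replicates, WT CFC replicate 1 was 22.5 to 49.4 from the other WT CFC libraries, which were 2.74 to 8.95 from each other, and *Malat1* stood there at 429.9 CPM against 271.0 to 292.9 CPM. KIX CFC replicate 2 was 22.1 to 27.4 from the other KIX CFC libraries, which were 3.69 to 19.7 from each other. It was the lowest of that group for *Meg3* (478.8 CPM) and *Snhg11* (2021 CPM). Replicate 2 of KIX CFC was not counted among the libraries that stood apart. In KIX homecage replicate 3, the activity gene *Fos* stood at 104.9 CPM against 1.64 to 4.31 CPM in the other KIX homecage libraries, and *Arc* at 552.7 CPM against 47.7 to 70.4 CPM. KIX homecage replicate 4 was the lowest polyA library for *Miat* (362.0 CPM), *Snhg11* (1793 CPM), *Meg3* (414.0 CPM) and *Mirg* (17.88 CPM), and held the highest astrocyte sum (5174 CPM) and the lowest CA1 sum (208.8 CPM).

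In untrained WT hippocampus the members covered a wide range of levels per length. In the total RNA of RNA-Seq 1, *Malat1* was highest at 719.9 ± 124.7 CPM per kb of exon (SD, n = 3), followed by *Miat* at 37.90 ± 6.04, *Snhg11* at 33.61 ± 2.38, *Gm3764* at 18.69 ± 1.69, *Meg3* at 11.56 ± 1.45, *Mirg* at 9.735 ± 0.983, *Rian* at 9.155 ± 0.563 and *Neat1* at 3.517 ± 0.144 CPM per kb. *Miat* and *Snhg11* did not differ beyond their spread, nor did *Mirg* differ from *Meg3* or from *Rian*. Without replicate 3 the order was the same, with *Malat1* at 648.0, *Miat* at 41.21 and *Snhg11* at 34.32 CPM per kb. In the polyA-selected RNA-Seq 2 the order was *Snhg11* at 301.7 ± 13.8 CPM per kb (SD, n = 3), *Miat* at 77.44 ± 4.77, *Malat1* at 41.42 ± 3.78, *Meg3* at 33.64 ± 3.01, *Gm3764* at 21.84 ± 1.59, *Rian* at 17.25 ± 0.701, *Neat1* at 8.321 ± 1.10 and *Mirg* at 3.513 ± 0.102, with every neighbour apart by more than the sum of both SDs. Dividing by the longest transcript in place of the union of exons moved *Gm3764* to 49.33 CPM per kb in RNA-Seq 1 and 57.63 in RNA-Seq 2, which lifted it past *Meg3* and *Malat1* in the latter. In RNA-Seq 1, by that length, it did not differ beyond the spread from *Snhg11* (48.84 CPM per kb) and stood above *Miat* (38.44) by about the sum of both SDs. The same change moved *Rian* to 20.64 and 38.87 CPM per kb and *Mirg* to 18.57 and 6.702 CPM per kb. For *Neat1* (20771 bases) and *Malat1* (6983 bases) both lengths are the same, so this change could not move them. Each has 4 annotated transcripts, and the shorter ones were not used as a length. The place of *Neat1* in the order therefore holds only for the full 20771 bases.

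**Figure D1:**
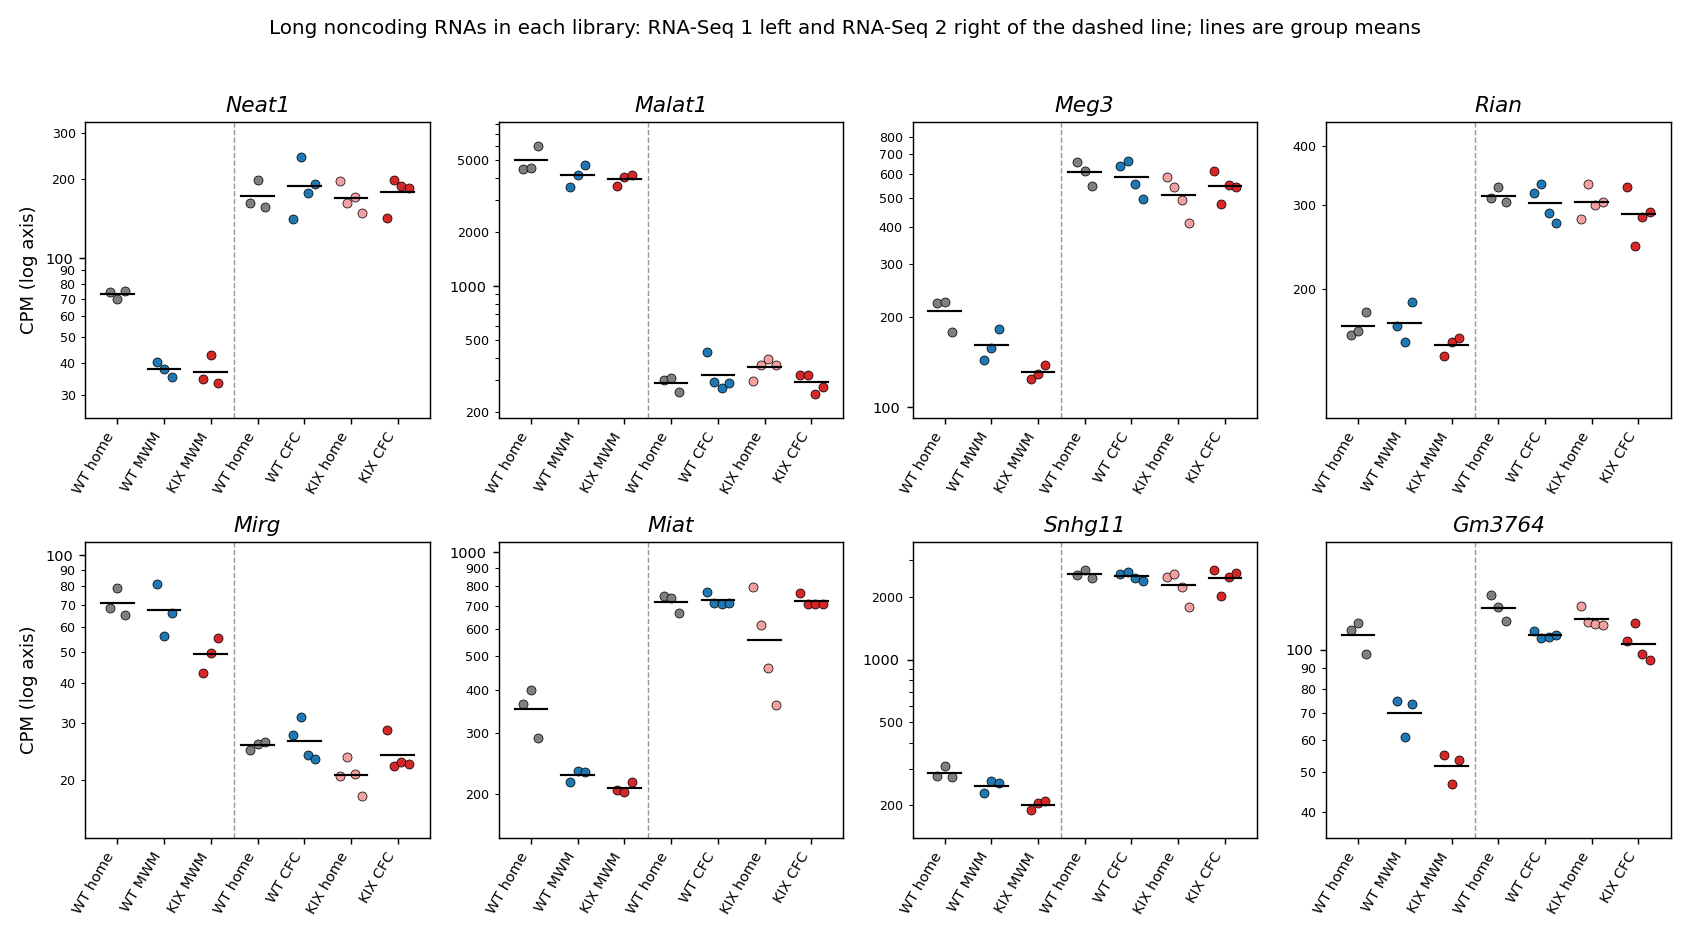
Level of each member in each of the 24 libraries, in CPM on a log axis, by group, with points for libraries, horizontal lines for group means and a dashed line between RNA-Seq 1 and RNA-Seq 2. *Neat1* lies at 69.61 to 74.95 CPM in WT homecage and 33.35 to 42.85 CPM in both MWM groups of RNA-Seq 1, and at 141.3 to 243.8 CPM in RNA-Seq 2.

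WT homecage libraries of RNA-Seq 1 and RNA-Seq 2 differed in the level of the 6 members not chosen on learning, though *Rian* did not after GC-content normalization. RNA selection, sequencing and mice change together between them, with *Arc* at 236.2 to 360.3 CPM against 64.49 to 69.37 CPM. *Malat1* was at 4483, 4567 and 6032 CPM in the total RNA libraries and at 300.6, 308.1 and 259.1 CPM after polyA selection. *Snhg11* went the other way, at 275.0, 309.8 and 274.3 CPM in total RNA and 2555, 2695 and 2461 CPM after polyA selection. For both genes the sets of libraries were far apart with no overlap. *Mirg* was also higher in total RNA, and *Meg3*, *Neat1*, *Miat* and *Rian* were lower. The log2 difference, RNA-Seq 1 minus RNA-Seq 2, was 4.10 for *Malat1* (SE 0.20, adjusted p = 4.51e-07) and -3.19 for *Snhg11* (SE 0.13, adjusted p = 2.23e-07), each in 3 of 3 against 3 libraries. For *Mirg* it was 1.45 (SE 0.10, adjusted p = 2.99e-06), and for *Meg3*, *Miat* and *Rian* it was -1.56, -1.05 and -0.93 with adjusted p of 7.04e-06 to 8.39e-05. The 6 members not chosen on learning all had an adjusted p under 0.05, as did 14352 of 20602 genes tested (69.7%), and their median was -0.99 against 0.03 over all genes. As a description, *Neat1* was at -1.26.

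*Gm3764* was the least different, at -0.25 (SE 0.10), and at -0.29 to -0.17 when each of the 6 libraries was left out, also as a description. The members not chosen were called in all 6 of those fits, *Malat1* at 3.95 without WT homecage replicate 3. After GC-content normalization *Rian* moved to -0.05 (adjusted p = 0.543). Over all 20602 genes tested, 7720 were higher and 6632 lower in RNA-Seq 1. Related gene lists also split between the libraries: of 18 paraspeckle protein genes, 5 were higher and 10 lower in RNA-Seq 1, of 16 nuclear speckle and splicing factor genes 2 and 11, of 12 small nucleolar RNA host genes tested 2 and 5, and of 19 other brain long noncoding RNAs tested 7 and 8. Counts of 7 higher and 7 lower were found among other imprinted genes, 0 and 2 among other *Dlk1*-*Dio3* genes, and 7 and 0 among the 12 immediate early genes.

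The members share features of position and structure. *Neat1* (ENSMUSG00000092274.2, chr19:5824708-5845478, minus strand) and *Malat1* (ENSMUSG00000092341.2, chr19:5795690-5802672, minus strand) are neighbours, and each is 1 exonic block in the GENCODE M21 annotation of GRCm38. *Meg3* (ENSMUSG00000021268.17, chr12:109541001-109571726), *Rian* (ENSMUSG00000097451.10, chr12:109603940-109661716) and *Mirg* (ENSMUSG00000097391.8, chr12:109729764-109749460) follow each other on the plus strand, with 8, 19 and 14 exonic blocks. *Miat* (ENSMUSG00000097767.8, chr5:112213228-112229395, minus strand), *Snhg11* (ENSMUSG00000044349.15, chr2:158375638-158386145, plus strand) and *Gm3764* (ENSMUSG00000097156.7, chr3:88206813-88229959, plus strand) stand alone on their chromosomes among the members. All 8 carry the annotation's tag for hosts of small noncoding RNAs, which 221 of 8141 long noncoding genes carry (2.71%). The annotation types *Snhg11* as protein coding, so *Snhg11* is not among those 8141 genes. The tag is not a count of hosted genes: inside *Neat1*, *Malat1* and *Miat* lie 0 RefSeq miRNA hairpins and 0 small nucleolar RNA genes of the same strand.

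**Figure D2:**
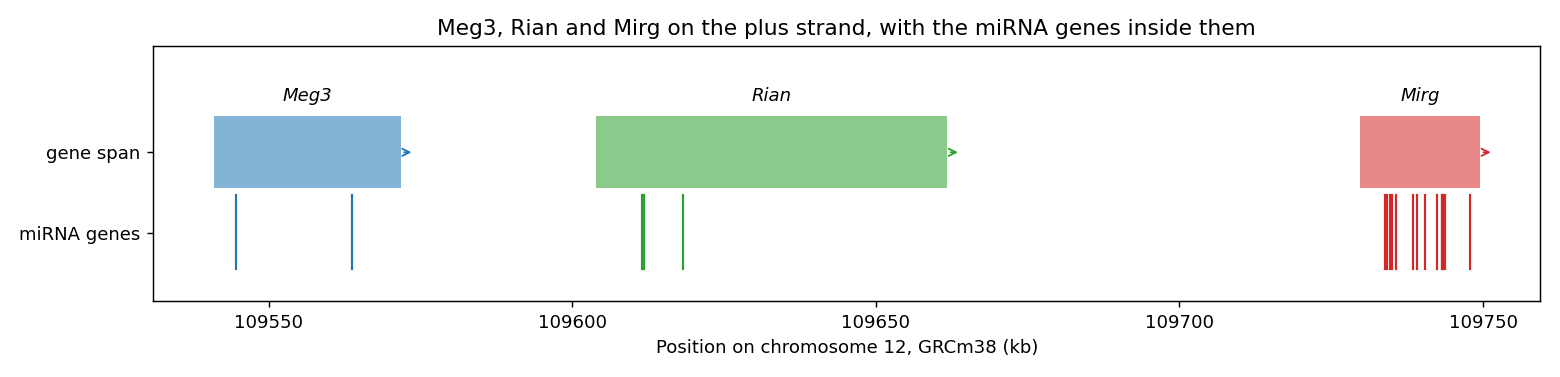
Map of *Meg3*, *Rian* and *Mirg* on chromosome 12 (GRCm38, position along the axis in kb), with boxes for whole genes, arrows for the direction of transcription and ticks for the miRNA genes inside them. The genes lie in a row on the plus strand from 109541001 to 109749460, and most miRNA genes lie in *Mirg*.

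RefSeq mature miRNAs (GRCm38.p6) lie on the same strand inside 4 members, 3 in *Meg3*, 6 in *Rian*, 26 in *Mirg* and 4 in *Gm3764*. The mature sequences below are those of miR-9, which *Gm3764* hosts in an intron, and of some of the miRNAs inside *Mirg*. The latter lie in exons or, in introns, share a seed, and other exonic ones, such as miR-377-5p and miR-410-5p, are not shown. They are given because *Mirg* is the member called in the pooled genotype comparison after learning and miR-9 is the neural miRNA of *Gm3764*. Capitals mark the seed, bases 2 to 8. The library preparation measured the host transcripts, and the mature miRNAs were not measured. The miR-9-5p and miR-9-3p bases lie at chr3:88215613-88215635 and chr3:88215652-88215673, plus strand, and miR-453 and miR-496a-5p have the same seed, GGUUGCC.
miR-9-5p: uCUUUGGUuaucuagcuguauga
miR-9-3p: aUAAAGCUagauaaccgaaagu
miR-134-5p: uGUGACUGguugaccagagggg
miR-485-3p: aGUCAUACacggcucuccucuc
miR-410-3p: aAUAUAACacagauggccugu
miR-453: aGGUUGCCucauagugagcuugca
miR-496a-5p: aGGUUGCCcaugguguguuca

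Genes of small RNAs inside the members have their own counts in the table. The *Mir9-1* gene had 0 counts in all 24 libraries. The antisense miRNA gene *Gm25641*, which shares bases with *Mir9-1*, held 0 to 132 counts and was above 0 in 22 libraries. The 0 at *Mir9-1* therefore does not show that no reads fell on these bases. *Mir3093* inside *Gm3764* had 278 to 775 counts per library in RNA-Seq 1, equal to 14.2% to 20% of the counts of *Gm3764* there, and 0 to 13 counts in RNA-Seq 2, at most 0.543%, which over all libraries came to 6.08%. Among those inside *Mirg* the largest total was that of *Mir541*, equal to 2.23% of the *Mirg* counts. The antisense gene *Gm26953* shares 2260 exonic bases with *Miat* and held 8 to 128 counts, equal to 0.252% of those of *Miat* over all libraries. Whether counting used the strand is not stated, so counts at bases shared with antisense genes are uncertain.

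Promoters from RefSeq (GRCm38.p6), 300 bases around the annotated start, matched 7 of the 8 members, with *Neat1* unmatched. They were searched on both strands for the CREB element TGACGTCA, its shorter form TGACG, which is part of it, the AP-1 element TGANTCA, the E-box CACGTG and the EGR element GCGNGGGCG, which occur in 1.79%, 20.8%, 7.81%, 7.15% and 5.55% of 32851 promoters. *Gm3764* (chr3:88214232-88214531, plus strand) and *Meg3* (chr12:109540746-109541045, plus strand) each hold 1 TGACGTCA, and *Gm3764* also holds 1 EGR element. The shorter form occurs 3 times at *Malat1* and 2 times each at *Gm3764* and *Meg3*, where both lie within the TGACGTCA, once on each strand. No AP-1 element or E-box is found at any of the 7, and a second *Meg3* promoter (chr12:109545148-109545447, plus strand) holds no match. The RefSeq promoters of *Gm3764*, *Mirg* and *Miat*, and the second of *Meg3*, lie wholly inside the GENCODE genes. Those of *Gm3764* and *Meg3* with a TGACGTCA are shown because KIX binds phosphorylated CREB. Matches are in capitals, and a match is a description of letters and not a site.
Gm3764: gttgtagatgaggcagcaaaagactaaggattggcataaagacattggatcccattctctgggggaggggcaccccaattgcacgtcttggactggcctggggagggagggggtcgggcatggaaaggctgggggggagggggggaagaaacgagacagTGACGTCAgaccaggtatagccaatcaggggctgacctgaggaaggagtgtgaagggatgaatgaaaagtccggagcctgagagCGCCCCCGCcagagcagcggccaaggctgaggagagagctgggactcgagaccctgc
Meg3: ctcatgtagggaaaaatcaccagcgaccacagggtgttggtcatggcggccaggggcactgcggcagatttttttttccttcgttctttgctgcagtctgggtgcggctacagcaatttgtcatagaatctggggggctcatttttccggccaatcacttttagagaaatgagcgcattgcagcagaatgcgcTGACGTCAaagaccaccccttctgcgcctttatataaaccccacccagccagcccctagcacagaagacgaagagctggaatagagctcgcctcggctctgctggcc

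Learning was examined in WT mice by comparing trained with homecage libraries, first within each task. In RNA-Seq 1, *Neat1* was at 74.57, 69.61 and 74.95 CPM in WT homecage and at 40.25, 37.76 and 35.24 CPM after MWM. *Gm3764* was at 112.0, 116.4 and 97.58 CPM in homecage and at 74.63, 60.96 and 73.71 CPM after MWM. For both chosen genes every MWM library lay below every homecage library. *Miat* was at 365.3, 400.6 and 290.7 CPM in homecage and 216.3, 233.1 and 232.3 CPM after MWM, again without overlap. *Snhg11* did not overlap either, at 274.3 to 309.8 and 228.4 to 261.4 CPM, whereas *Meg3*, *Malat1*, *Mirg* and *Rian* did. The share of all genes without overlap was not counted, here or in the later comparisons. A separation of groups is therefore only a description, and nothing is read from how many members show it.

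The log2 difference, MWM minus homecage, was -0.95 (SE 0.10) for *Neat1* and -0.64 (SE 0.12) for *Gm3764*, as a description of the selected genes. *Miat* was at -0.63 (SE 0.13, adjusted p = 0.304), *Meg3* at -0.37 (SE 0.13, adjusted p = 0.403), and the other 4 members at -0.28 to 0.03 with adjusted p of 0.60 to 0.956, so none of the 6 members not chosen on learning passed the test. Of 21657 genes tested, 3 were called (0.0139%), *Neat1* among them, from which nothing is read. The median of the 6 members not chosen was -0.24 against -0.06 over all genes. DESeq2 called 49 genes and, of these 6 members, *Miat* (adjusted p = 0.0158). A fit with a replicate block, on 2 residual degrees of freedom, called 559 genes and, of the 6, *Miat* (-0.62, adjusted p = 0.000985). *Rian* and *Mirg* turned direction in single fits, *Rian* to -0.06 without MWM replicate 3 and *Mirg* to 0.05 without MWM replicate 2. Without WT homecage replicate 3, *Miat* was at -0.75 (adjusted p = 0.0138), *Meg3* at -0.47 (adjusted p = 0.0226), *Malat1* at -0.13 (adjusted p = 0.562), and *Neat1* and *Gm3764* at -0.93 and -0.71, but 1990 of 22054 genes (9.02%) were then called.

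In RNA-Seq 2, the same question for CFC gave little difference for most members. *Neat1* was at 162.7, 199.1 and 156.8 CPM in WT homecage and at 141.3, 243.8, 176.9 and 192.2 CPM after CFC, with wide overlap. *Gm3764* was at 135.9, 127.5 and 117.5 CPM in homecage and at 110.9, 106.9, 107.2 and 108.8 CPM after CFC, with every CFC library below every homecage library. As a description, *Gm3764* differed by -0.23 (SE 0.05) and *Neat1* by 0.12 (SE 0.16) on the log2 scale. The other 6 members lay between -0.05 and 0.15 with adjusted p of 1.00, and 5 of them turned direction when some library was left out, *Malat1* from 0.15 to -0.02 without CFC replicate 1. None of the 6 members not chosen was called by edgeR, against 21 of 18115 genes (0.116%), or by DESeq2, which called 42 genes. None of them had an unadjusted p under 0.05, against 742 genes, and their median was -0.01. Without CFC replicate 1, 13 of 17871 genes and 0 members were called, with *Neat1*, as a description, at 0.24.

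With both tasks in 1 model, the selected genes stood at -0.42 (*Gm3764*, SE 0.06) and -0.40 (*Neat1*, SE 0.11) on the log2 scale. *Miat* fell by 0.30 (SE 0.05, adjusted p = 0.0184) and was lower in 6 of 7 trained libraries than the homecage mean of its experiment, 3 of 3 after MWM and 3 of 4 after CFC. Within the experiments its difference was -0.63 (SE 0.13) after MWM and 0.01 (SE 0.05) after CFC, so the pooled value does not describe RNA-Seq 2. *Meg3* was at -0.21 (SE 0.06, adjusted p = 0.0912), *Snhg11* at -0.12 (SE 0.04, adjusted p = 0.113), and *Malat1*, *Rian* and *Mirg* at -0.06, -0.02 and -0.01 with adjusted p of 0.784 to 0.955. The sign of the last 3 turned with scaling and with single libraries: DESeq2 gave 0.02 for *Mirg* and 0.01 for *Rian*, GC-content normalization gave 0.04 for *Malat1*, and without WT MWM replicate 2 *Mirg* was at 0.05. Of 22038 genes, 200 were called (0.908%) and 2 of 8 members, *Gm3764* and *Miat*, and since *Gm3764* was selected on this contrast nothing is read from that count. The median of the 6 members not chosen was -0.09 against -0.03 over all genes.

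The *Miat* call was lost in 6 of 13 fits that left out a library, in which its difference stayed between -0.32 and -0.22. These were the fits without WT homecage replicate 1 (-0.25, adjusted p = 0.156) or 2 (-0.22, 0.0714) of RNA-Seq 1, WT MWM replicate 1 (-0.24, 0.0979), 2 (-0.27, 0.105) or 3 (-0.27, 0.0920), and WT homecage replicate 1 of RNA-Seq 2 (-0.32, 0.0729). Without the factors of unwanted variation the value was -0.29 and the adjusted p 0.473, where 9 genes and 0 members were called, and with a replicate block in place of the factors -0.30 and 0.408, with 14 genes and 0 members called. Without WT homecage replicate 3 of RNA-Seq 1, 2489 of 22494 genes (11.1%) were called. Of the 6 members not chosen, these held *Miat* at -0.32 (adjusted p = 0.00394) and *Meg3* at -0.24 (adjusted p = 0.0318), with *Malat1* at 0.02. *Meg3* was also called without WT CFC replicate 1 (-0.24, adjusted p = 0.0472), where 581 of 21947 genes (2.65%) were called and *Malat1* moved to -0.17 (adjusted p = 0.0641). The *Miat* call also missed the threshold with 2 factors (0.0621), with no filter on low counts (0.0751) and after GC-content normalization (0.119).

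Whether the learning difference itself differed between the experiments was tested in WT mice, as an interaction of learning and task. Task, RNA selection and sequencing change together between the experiments. The interaction therefore cannot separate a difference between tasks from one of RNA selection or sequencing, and the part of each was not tested. *Neat1* had the widest gap, -1.08 (SE 0.20) on the log2 scale for MWM minus CFC, and *Gm3764* -0.41 (SE 0.12), both as descriptions of selected genes. *Miat* was at -0.64 (SE 0.14, adjusted p = 0.306), *Malat1* at -0.43 (SE 0.24, adjusted p = 0.704) and *Meg3* at -0.33 (SE 0.17, adjusted p = 0.692), with *Snhg11*, *Mirg* and *Rian* at -0.18, -0.12 and 0.07. None of the 6 members not chosen passed, against 3 of 22038 genes (0.0136%). Of these 6, *Miat* alone had an unadjusted p under 0.05, as did 1632 genes. DESeq2 called 29 genes and, of the 6, *Miat* (adjusted p = 0.0364). The median of the 6 members not chosen was -0.25 against -0.06 over all genes. Without WT homecage replicate 3 of RNA-Seq 1, 884 of 22494 genes (3.93%) were called and, of the 6 members not chosen, *Miat* at -0.77 (adjusted p = 0.0133), with *Malat1* at -0.28. Without WT CFC replicate 1, 3 of 21947 genes were called, with *Miat* at -0.62 (adjusted p = 0.464) and *Malat1* at -0.26.

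The gene lists around the members had few calls in the learning comparisons, apart from immediate early genes. In the pooled model, 0 of 18 paraspeckle protein genes were called, with a median of -0.04 and 7 of 18 positive, and 0 of 16 speckle and splicing factor genes, with a median of -0.06. Small nucleolar RNA host genes had a median of -0.21 with 1 of 12 positive, and *Snhg17* fell (-0.26, SE 0.05, adjusted p = 0.0318). Other *Dlk1*-*Dio3* genes had a median of -0.21 and no call, other brain long noncoding RNAs -0.05 and no call, and of the other imprinted genes *Zdbf2* rose (0.26, SE 0.05, adjusted p = 0.0345). Of 12 immediate early genes, 11 rose, with a median of 0.85, among them *Junb* (0.91), *Egr1* (0.97), *Arc* (1.28) and *Nr4a1* (1.08). Within MWM, *Fos* (1.14) and *Egr2* (2.22) passed the test, within CFC all 12, *Fos* at 2.79, *Arc* at 1.62 and *Nr4a1* at 1.17, with *Egr1* among them, and *Fos* (-1.66) and *Btg2* (-1.09) passed the interaction. In fits that left out a library, none of the 12 passed within MWM without WT MWM replicate 1 or 2, and none passed the interaction in 7 of 13 such fits. In the pooled model without the factors of unwanted variation 6 of the 12 rose, *Junb*, *Egr1*, *Arc* and *Nr4a1* among them, and neither *Snhg17* (adjusted p = 0.480) nor *Zdbf2* (0.388) was called, nor was either with 2 factors (0.0770 and 0.0871), when 10 of the 12 rose. Without WT homecage replicate 3 of RNA-Seq 1, calls in the pooled model were 948 higher and 1541 lower of 22494 genes (11.1%). In the lists they were 1 higher and 4 lower of 18 paraspeckle protein genes, 0 and 3 of 16 speckle and splicing factor genes, 0 and 2 of 12 small nucleolar RNA host genes and 12 and 0 of 12 immediate early genes. Without WT CFC replicate 1, 11 of the 12 immediate early genes rose in the pooled model and 10 within CFC, and *Fos* (-1.62) alone of the 12 passed the interaction.

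Markers of other cells and regions had few calls with training. *Cldn5* of endothelium fell (-0.48, SE 0.10, adjusted p = 0.0345), 1 of 7 on its list, whose summed level in RNA-Seq 1 was 263.5, 297.7 and 261.9 CPM in WT homecage and 232.2, 226.3 and 211.1 CPM after MWM, with *Rgs5* the most abundant. In RNA-Seq 2 the endothelial sums overlapped, at 248.8, 285.7 and 239.2 CPM in homecage and 239.1, 251.3, 249.4 and 265.0 CPM after CFC. *Aqp1* of choroid plexus rose (1.75, SE 0.38, adjusted p = 0.0494), 1 of 8 on its list, whose summed level was 142.1, 158.8 and 1813 CPM in WT homecage and 198.2, 622.6 and 1797 CPM after MWM, and without WT homecage replicate 3 of RNA-Seq 1, which holds the 1813 CPM, 7 of the 8 rose, as did 8 without WT CFC replicate 1. In the polyA libraries that list totalled 26.87, 1662 and 28.44 CPM in WT homecage against 34.44, 4170, 1709 and 1809 CPM after CFC. Dentate gyrus markers, led by *C1ql2*, totalled 596.1, 573.3 and 571.7 CPM in the RNA-Seq 1 homecage against 445.2, 429.7 and 445.9 CPM after MWM, and 348.5, 322.7 and 383.6 CPM in the RNA-Seq 2 homecage against 364.2, 324.2, 371.1 and 375.5 CPM after CFC. Without the factors neither *Cldn5* (adjusted p = 0.296) nor *Aqp1* (0.673) was called, and with 2 factors *Cldn5* was (0.0333) and *Aqp1* was not (0.0617). None of the 5 dentate gyrus genes was called by edgeR, with medians of -0.40 after MWM and 0.05 after CFC. No gene of these 3 lists was at 0 in all libraries, and their part in the *Miat*, *Neat1* and *Gm3764* differences was not tested.

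The training response of KIX mice uses libraries on which *Neat1* and *Gm3764* were not selected. *Gm3764* was at 127.9, 117.2, 115.4 and 114.9 CPM in KIX homecage and at 104.8, 116.2, 97.36 and 94.3 CPM in KIX CFC. All 4 CFC libraries lay below the homecage mean, and 1 of them, at 116.2 CPM, overlapped the homecage range. *Neat1* was at 196.4, 161.6, 171.4 and 148.8 CPM in KIX homecage and at 142.5, 198.8, 187.7 and 184.7 CPM in KIX CFC, with full overlap. *Malat1* was at 295.4, 366.1, 393.7 and 363.8 CPM in KIX homecage and 319.8, 318.9, 251.0 and 275.2 CPM in KIX CFC, lower than the homecage mean in 4 of 4 libraries but overlapping through homecage replicate 1.

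By edgeR, *Gm3764* was at -0.20 (SE 0.07, adjusted p = 0.497), *Malat1* at -0.28 (SE 0.10, adjusted p = 0.497) and *Neat1* at 0.07 (SE 0.11, adjusted p = 0.864), and the other 5 members lay between -0.09 and 0.37. No member was called, against 2 of 17717 genes (0.0113%), 2 members and 1686 genes had an unadjusted p under 0.05, and DESeq2 called 44 genes and 0 members. The member median was 0.09 and that of all genes 0.00. Without KIX homecage replicate 3, 14 of 18725 genes and 0 members were called, with *Gm3764* at -0.21 (adjusted p = 0.728), *Malat1* at -0.23 and *Neat1* at 0.08. Without KIX homecage replicate 4, 0 of 18722 genes were called and 1237 had an unadjusted p under 0.05, with *Gm3764* at -0.22 (adjusted p = 0.754), *Malat1* at -0.27, *Miat* at 0.21 and *Neat1*, *Meg3* and *Snhg11* at 0.01, and *Miat* was at 0.58 without KIX homecage replicate 1 (adjusted p = 0.110). With all libraries no list had a call, and the immediate early median was -0.09. In the fit without KIX homecage replicate 3, 9 of 12 immediate early genes rose, with a median of 1.27, among them *Junb* (1.11), *Egr2* (3.15), *Arc* (1.64) and *Fos* (2.94), and the other lists still had 0 calls. Summed astrocyte markers were 3375, 3669, 4285 and 5174 CPM in KIX homecage against 3173 to 3396 CPM in KIX CFC, and their part in the members' values was not tested.

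Whether training acted differently in KIX and WT mice was tested as an interaction over all 4 groups of RNA-Seq 2, which include the WT CFC and WT homecage libraries of the contrast on which *Neat1* and *Gm3764* were selected. *Malat1* was at -0.42 (SE 0.19, adjusted p = 0.944), *Miat* at 0.36 (SE 0.24, adjusted p = 0.944) and the other 4 members not chosen at -0.03 to 0.16. As a description, *Gm3764* was at 0.03 (SE 0.09) and *Neat1* at -0.05 (SE 0.21). The *Neat1* sign turned in 5 settings, to 0.03 after GC-content normalization and as far as 0.10 without WT CFC replicate 2. No gene of 18851 was called (0%), no member and no list gene among them, while 929 genes and 1 member, *Malat1*, had an unadjusted p under 0.05 and DESeq2 called 1 gene. The median of the 6 members not chosen was 0.15 against 0.01 over all genes. Without KIX homecage replicate 3, 0 of 19066 genes were called and 685 had an unadjusted p under 0.05, *Malat1* was at -0.38 and *Miat* at 0.28, and the immediate early median was 0.02 against -1.38 with it. In the fit without KIX homecage replicate 4, 0 of 19083 genes were called, 736 had an unadjusted p under 0.05, *Miat* was at 0.19, and *Meg3*, *Mirg* and *Snhg11* were at 0.06, 0.09 and 0.04. *Miat* reached 0.58 without KIX homecage replicate 1 (adjusted p = 0.210), and *Malat1* was at -0.25 without WT CFC replicate 1 (adjusted p = 0.907), where *Neat1* was at -0.16, and -0.51 without KIX homecage replicate 1. *Rian* turned to 0.03 without KIX CFC replicate 2.

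Genotype was compared after learning, where the WT libraries are also the trained libraries of the learning comparison on which *Neat1* and *Gm3764* were selected, so both are described without a test. After MWM, *Mirg* was at 81.24, 56.25 and 65.94 CPM in WT and 43.01, 49.51 and 55.5 CPM in KIX mice. *Gm3764* was at 74.63, 60.96 and 73.71 CPM in WT and 55.2, 46.68 and 53.6 CPM in KIX mice. In both genes every KIX library lay below every WT library. *Meg3* was at 143.8, 158.0 and 182.2 CPM in WT and 124.6, 128.9 and 138.3 CPM in KIX mice, and *Snhg11* at 228.4, 261.4 and 255.1 against 189.0, 204.4 and 210.4 CPM, also without overlap. *Miat* did not overlap by a narrow gap, at 216.3, 233.1 and 232.3 CPM in WT and 205.1, 202.1 and 216.2 CPM in KIX mice. *Neat1*, at 33.35 to 42.85 CPM over both groups, overlapped. How many of all genes were likewise without overlap was not counted, so these separations are descriptions.

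The log2 differences after MWM were -0.45 for *Mirg* (SE 0.13), -0.29 for *Meg3* (SE 0.09) and -0.29 for *Snhg11* (SE 0.08), each with an adjusted p of 0.437. *Rian*, *Miat* and *Malat1* were at -0.15, -0.12 and -0.06 with adjusted p of 0.526 to 0.859, and as a description *Gm3764* was at -0.42 (SE 0.09) and *Neat1* at -0.02. *Malat1* turned to 0.04 after GC-content normalization and without WT MWM replicate 3. None of the 6 members not chosen was called by edgeR or DESeq2, against 2 of 21319 genes (0.00938%) by edgeR and 43 by DESeq2, and 3 of them and 2241 genes had an unadjusted p under 0.05. Their median was -0.22 against -0.01 over all genes. No list gene was called. The medians were -0.27 for CA1 markers and 0.29 for dentate gyrus markers, whose summed levels were 744.0 CPM in KIX against 953.8 CPM in WT and 535.5 against 440.3 CPM, and their part in the members' values was not tested.

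After CFC, *Mirg* was at 27.54, 31.34, 23.85 and 23.2 CPM in WT and 28.64, 22.1, 22.71 and 22.4 CPM in KIX mice, and *Gm3764* at 110.9, 106.9, 107.2 and 108.8 CPM in WT and 104.8, 116.2, 97.36 and 94.3 CPM in KIX mice. All 8 members overlapped between the genotypes. Their log2 differences ran from -0.14 (*Mirg*, SE 0.11, and *Malat1*, SE 0.14) to -0.01 (*Miat*), with adjusted p of 1.00 for the 6 members not chosen and *Gm3764*, as a description, at -0.07 (SE 0.06). Leaving out 1 library turned 4 of these directions, *Malat1* to 0.04 and *Miat* to 0.02 without WT CFC replicate 1, *Neat1* to 0.08 without WT CFC replicate 2 and *Snhg11* to 0.05 without KIX CFC replicate 2. None of the 6 was called and none had an unadjusted p under 0.05, against 1 of 17541 genes called (0.0057%), 615 genes with an unadjusted p under 0.05, and 18 genes and 0 members with DESeq2. Without WT CFC replicate 1, 1 of 17273 genes was called, and *Neat1*, as a description, was at -0.20. The median of the 6 was -0.09, and no list gene was called.

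With both tasks in 1 model, *Mirg* fell by 0.28 in KIX mice (SE 0.05, adjusted p = 0.00738) and was below the WT mean of its experiment in 6 of 7 KIX libraries. As a description, *Gm3764* was at -0.22 (SE 0.05), also lower in 6 of 7 libraries, and *Neat1* at -0.05. The other differences were also negative: *Meg3* -0.18 (SE 0.05, adjusted p = 0.0609), *Snhg11* -0.15 (SE 0.04, adjusted p = 0.0852), *Rian* -0.11 (SE 0.03, adjusted p = 0.0614), *Malat1* -0.09 (adjusted p = 0.414) and *Miat* -0.06 (adjusted p = 0.239). Of 21489 genes, 528 were called (2.46%), 201 higher and 327 lower, and of the 6 members not chosen 1 was called and 5 had an unadjusted p under 0.05, as did 4022 genes (18.7%). Their median was -0.13 against -0.01 over all genes.

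The *Mirg* call was lost without the factors of unwanted variation (-0.28, adjusted p = 0.390, with 5 genes called), with 2 factors (0.0717), with a replicate block in place of the factors (0.40, with 9 genes called) and with no filter on low counts (0.0623). It was also lost without WT MWM replicate 1 (-0.21, adjusted p = 0.0643). Without WT CFC replicate 1, 293 of 21588 genes (1.36%) were called, with *Mirg* at -0.28 (adjusted p = 0.0360), *Malat1* at -0.01 and, as a description, *Neat1* at -0.12. After GC-content normalization 3 members were called, *Rian*, *Mirg* and *Snhg11*, and 235 of 21489 genes (1.09%). *Meg3* was called without WT MWM replicate 1 (-0.20, adjusted p = 0.0451) or WT CFC replicate 4 (-0.23, adjusted p = 0.0341), and *Rian* without KIX MWM replicate 3 (-0.12, adjusted p = 0.0460). *Neat1* turned to 0.03 without WT CFC replicate 2, and *Gm3764* lay between -0.27 and -0.18 over all fits that left out a library. DESeq2 called *Meg3*, *Rian*, *Mirg* and *Snhg11* among the 6 members not chosen, and 886 of 21489 genes (4.12%).

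**Figure D3:**
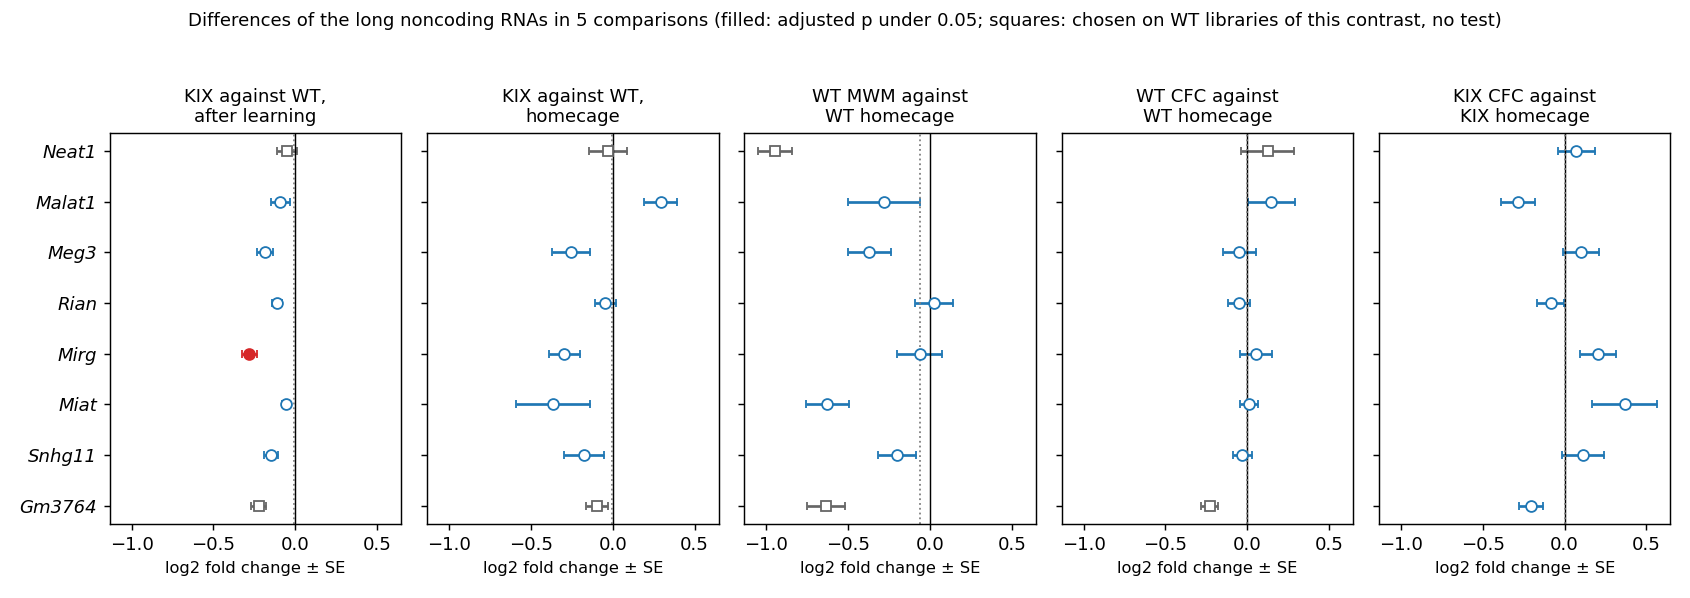
Log2 fold change of each member with its standard error in 5 comparisons, with a dotted line at the median over all genes tested, filled points for an adjusted p under 0.05 and squares for the selected genes in contrasts with the WT libraries that chose them. After learning, all 8 members lie between -0.28 and -0.05 in KIX against WT, and *Mirg* has an adjusted p under 0.05.

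Related genes in the pooled genotype comparison had few calls outside immediate early genes. Of 18 paraspeckle protein genes, 17 were positive with a median of 0.04, and *Hnrnpk*, which encodes an RNA-binding protein, rose (0.11, SE 0.03, adjusted p = 0.0330). Of 16 speckle and splicing factor genes 11 were positive with a median of 0.03, and of 19 other brain long noncoding RNAs 9, with a median of -0.03, and neither list had a call. Small nucleolar RNA host genes had a median of 0.11 with 11 of 12 positive, and *Snhg12* rose (0.21, SE 0.04, adjusted p = 0.0234). Other *Dlk1*-*Dio3* genes had a median of 0.03 and no call, and of 20 other imprinted genes *Zdbf2* fell (-0.25, SE 0.05, adjusted p = 0.0154). Of 12 immediate early genes 7 fell, with a median of -0.28, among them *Fos* (-0.51), *Dusp1* (-0.36), *Junb* (-0.32) and *Nr4a1* (-0.31). These calls depend on the model: without the factors of unwanted variation none of the lists had a call, with the immediate early median at -0.27, and with a replicate block in place of the factors *Fos* alone passed. Of the 12, 4 fell with 2 factors, 6 with TMM or after GC-content normalization, 9 with DESeq2 and 6 to 9 when libraries were left out in turn. With 2 factors *Snhg12* kept its call and *Hnrnpk* (adjusted p = 0.0874) and *Zdbf2* (0.203) lost theirs.

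Regional and glial marker lists held 6 calls, where 528 of 21489 genes (2.46%) were called over all genes tested. *Fibcd1* of CA1 fell (-0.30, SE 0.07, adjusted p = 0.0264) with a list median of -0.23, *Calb1* of the dentate gyrus rose (0.35, SE 0.06, adjusted p = 0.00606) with 5 of 5 genes positive and a median of 0.18, and *Iyd* of CA3 rose (0.45, SE 0.11, adjusted p = 0.0375) with 2 of 4 genes positive and a list median of 0.02. Of the 8 astrocyte markers, *Gfap* (-0.29) and *Aldh1l1* (-0.26) fell and *Gja1* (0.16) rose. None of these 6 calls was kept without the factors or with a replicate block in their place, and *Fibcd1* and *Iyd* were also lost with 2 factors (adjusted p = 0.0538 and 0.0581) and after GC-content normalization (0.0955 and 0.0547). Summed CA1 markers were 339.3 CPM in WT and 299.8 CPM in KIX mice after CFC, and choroid plexus genes had a median of -0.64 without a call. Within the tasks the choroid plexus median was 0.41 with 8 of 8 genes positive after MWM and -0.64 with 0 of 8 positive after CFC. The other marker lists had 0 calls, neurons with a median of 0.03. No marker list gene was at 0 in all libraries, and their part in the *Mirg* and *Gm3764* values was not tested.

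In the homecage, where the study asked whether genotype matters without training, *Mirg* was at 24.77, 25.91 and 26.17 CPM in WT and 20.64, 23.66, 20.84 and 17.88 CPM in KIX mice, every KIX library below every WT library. *Miat* was at 749.9, 740.2 and 668.7 CPM in WT and 791.7, 615.7, 464.0 and 362.0 CPM in KIX mice. *Gm3764*, at 117.5 to 135.9 CPM in WT and 114.9 to 127.9 CPM in KIX mice, overlapped. The log2 differences were -0.30 for *Mirg* (SE 0.09, adjusted p = 0.776), 0.29 for *Malat1* (SE 0.10, adjusted p = 0.776), and -0.36 for *Miat* (SE 0.22, adjusted p = 0.827), with *Meg3*, *Snhg11* and *Rian* at -0.25, -0.18 and -0.05. The WT homecage libraries also served to select *Gm3764* and *Neat1*, which as a description were at -0.10 (SE 0.07) and -0.03 (SE 0.11). None of the 6 members not chosen passed the test, against 2 of 18682 genes (0.0107%), while 2 of them and 1153 genes had an unadjusted p under 0.05 and DESeq2 called 59 genes and 0 members.

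The homecage median over the 6 members not chosen was -0.22. Without KIX homecage replicate 3, 2 of 18401 genes and 0 members were called, with *Mirg* at -0.29 (adjusted p = 0.993), *Malat1* at 0.24 and *Miat* at -0.28. Without KIX homecage replicate 4, 3 of 18391 genes and 0 members were called, with *Mirg* at -0.23 (adjusted p = 0.988), *Miat* at -0.20, *Meg3* at -0.16, *Snhg11* at -0.07 and *Neat1* turned to 0.04, as it did to 0.09 without WT homecage replicate 2. *Miat* moved the other way, to -0.58, without KIX homecage replicate 1 (adjusted p = 0.242). With all libraries no list gene was called, and the 12 immediate early genes had a median of 1.12 with 12 of 12 positive. In the fit without replicate 3 that median was -0.27 with 1 of 12 positive. Summed astrocyte markers, led by *Slc1a2*, were 3265, 3239 and 3384 CPM in WT and 3375, 3669, 4285 and 5174 CPM in KIX homecage, none of the 8 at 0. Summed CA1 markers were 379.2, 331.0 and 349.0 CPM in WT and 333.4, 298.0, 252.3 and 208.8 CPM in KIX homecage, with a median difference of -0.40 and 0 of 4 positive. Summed CA3 markers were 204.0, 175.5 and 195.4 CPM in WT and 203.8, 225.4, 242.1 and 259.2 CPM in KIX homecage, with a median of 0.21. The part of these markers in the members' values was not tested.

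Across all 24 libraries, after each experiment's mean was subtracted, members differed in how steady they were and in which genes they resembled. *Rian* varied least, with a highest-to-lowest ratio of 1.30 in RNA-Seq 1 and a coefficient of variation of 8.17% there and 8.14% in RNA-Seq 2. Among the 6 members not chosen on learning, *Miat* varied most, with ratios of 1.98 in RNA-Seq 1 and 2.19 in RNA-Seq 2, the latter through KIX homecage. The strongest relation between members was *Meg3* with *Snhg11* (Pearson's r = 0.903, 24 libraries), then *Meg3* with *Miat* (0.839) and *Miat* with *Snhg11* (0.811). *Meg3* and its neighbour *Mirg* had r = 0.741, the selected *Neat1* and *Gm3764* 0.672, and the neighbours *Neat1* and *Malat1* 0.163. Without the 4 libraries that stood apart (20 libraries) these were 0.891, 0.842, 0.727, 0.672, 0.660 and 0.192, and *Miat* with *Gm3764* had 0.843, and with WT CFC replicate 1 kept (21 libraries) *Neat1* and *Malat1* had -0.01. These r are descriptions over libraries that share groups and depth. Group differences were not subtracted, so the fall with learning on which *Neat1* and *Gm3764* were chosen enters every r of these genes, here and below.

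Among 22330 genes, those most like *Miat* were *Leng8* (0.954), *Gm11766* (0.946) and *Dennd6b* (0.945), and those most like *Meg3* were *Tle2* (0.915), *Snhg11* (0.903) and *Ssh3* (0.894). *Snhg11* was most like *Meg3*, *Ttc7* (0.861) and *Kcnt1* (0.849), *Malat1* like *Gm44441* (0.853), *Malsu1* (0.803) and *Gm47592* (0.795), and *Rian* like *Vill* (0.804), *Abat* (0.792) and *Tmsb10* (0.790). The nearest to *Mirg* were *Hjurp* (0.850), *Cpsf4* (0.825) and, between them, *Fbf1*, and to *Neat1* *Ccdc13* (0.833), *Fhod1* (0.831) and *Atp10d* (0.812). The nearest to *Gm3764* were *4930579G18Rik* (0.884), *2900052L18Rik* (0.873) and *Sfswap* (0.859). Within RNA-Seq 1 and RNA-Seq 2 their r was 0.984 and 0.147, 0.952 and 0.601, and 0.974 and 0.339.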

How the data were processed

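Dorsal hippocampal RNA was sequenced in 24 libraries, and the authors deposited 1 table of gene counts. The submitters' processing notes name STAR, SAMtools 1.6 and featureCounts 1.4.4 on mm10 (GRCm38), and state neither the annotation release nor the strand setting. Symbols came from GENCODE M21. Counts were normalised by upper quartile, filtered by filterByExpr and tested by edgeR 4.0.16 quasi-likelihood in R 4.3.3, with Benjamini-Hochberg adjustment over all genes tested and a threshold of 0.05 on the adjusted p (called). The pooled models had experiment as a batch and RUVr factors estimated from residuals, 4 for genotype and 3 for learning, coded for this work because the package was not installed. The dispersion estimate behind the factors and the quasi-likelihood setting were settled after fits of these data had been seen. Floors in CPM cover counting error only.

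The members and lists were chosen with earlier results of these data known. The lists were paraspeckle proteins, nuclear speckle and splicing factors, other *Dlk1*-*Dio3* genes, other imprinted genes, small nucleolar RNA host genes, other brain long noncoding RNAs, immediate early genes and markers of cell types and regions. Genes named were the 8 members, at most 4 called genes per list and comparison by lowest p, and the 3 genes with the highest r to each member on log2 CPM with a prior count of 2. Alternatives were TMM, DESeq2 1.42.0, no filter, GC-content normalization in 10 bins, a replicate block, 0 or 2 factors and leaving out each library. Python 3.11.15 read the RefSeq sequences.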

Additional observations from a re-analysis of the deposited data

Results flagged for a closer look

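Groups of 4 libraries were searched for a library far from the others, 24 tests in all, and chance alone marks some groups. In WT CFC, *Malat1* was at 429.9 CPM in replicate 1 against 271.0 to 292.9 CPM in the others, and *Miat* at 766.9 CPM in replicate 1 against 708.6 to 715.9 CPM. In KIX CFC, *Mirg* was at 28.64 CPM in replicate 1 against 22.1 to 22.71 CPM, and *Miat* at 763.1 CPM in replicate 1 against 707.2 to 709.4 CPM. All 4 values belong to replicate 1 of a CFC group.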

How the results depend on the processing

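Across 1392 values recomputed under another setting, each a member in a comparison, 1265 kept their direction and side of the threshold, 38 lost and 29 gained a call, 60 turned direction with no call on either side, and no called direction reversed. Counts of members called here include the selected genes, and nothing is read about those genes from them. Members called after learning in KIX against WT were 2 in the main fit, *Mirg* and the selected *Gm3764*. They were 5 with DESeq2, 1 with no filter on low counts, 3 after GC-content normalization, 0 without RUVr factors and 0 with 2 factors, and 1 to 3 when libraries were left out in turn. In WT learning they were 2 in the main fit, *Miat* and the selected *Gm3764*. There they were 1 with no filter, 1 after GC-content normalization, 0 without factors, 1 with 2 factors and 1 to 4 with libraries left out. DESeq2 gave 3 for WT MWM, 1 for WT CFC, 1 for KIX against WT after MWM and 2 for the interaction of learning and task. Leaving out libraries gave 0 to 4 for WT MWM, 0 to 3 for that interaction, 7 to 7 for RNA-Seq 1 against RNA-Seq 2, and 0 to 0 for WT CFC, KIX CFC, KIX against WT after MWM, after CFC and in the homecage, and the interaction of genotype and training.

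Counts of genes called moved more. KIX against WT after learning gave 528 as reported, 886 with DESeq2, 214 with no filter, 235 after GC-content normalization, 5 without factors and 150 with 2 factors. WT learning gave 200 as reported, 756 with DESeq2, 67 with no filter, 63 after GC-content normalization, 9 without factors and 128 with 2. Its split of higher and lower genes was 76 and 124 as reported, 84 and 55 with TMM and 529 and 227 with DESeq2. After GC-content normalization it was 46 and 17, and for genotype after learning 62 and 173, against 201 and 327 as reported and 54 and 160 with no filter. KIX against WT after MWM gave 2 genes as reported, 4 with no filter and 0 after GC-content normalization, KIX against WT after CFC 1 as reported and 2 with no filter, and the interaction of learning and task 3 as reported and 1 with TMM. Alternatives chosen after seeing the data were the older edgeR quasi-likelihood fit, with 520 and 175 genes, and RUVr residuals from another dispersion estimate, with 626 and 266 genes and 3 and 2 members. Lists, levels and correlations without the libraries that stood apart, and lists under every setting, were also added then. The cause was not tested.

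A replicate block, tried because replicate numbers repeat between groups and fitted in the pooled models in place of the RUVr factors, gave 0 members and 9 genes after learning in KIX against WT, 0 members and 14 genes in WT learning, against 5 and 9 genes without factors or block, 3 members, *Miat* and both selected genes, and 559 genes in WT MWM, and 1 member, a selected gene, in the interaction of learning and task. Pairs of libraries with the same number had a mean r of -0.0193 in RNA-Seq 1 (9 pairs) and 0.171 in RNA-Seq 2 (21 pairs), against 0.00969 and -0.0572 for different numbers, and 16 of the 21 pairs were over 0.1. The labels do not call the numbers a pairing, the calls in the report do not use them as one, and the cause was not tested.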
